A study of Mus musculus with 6 samples.

Results

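The genes described here are 38 autophagy genes, chosen by name for their roles as cargo receptors, ATG8 proteins, core machinery or transcriptional regulators of the pathway. They were chosen with earlier results of these data known, so the shares set beside all genes below are descriptions and not an independent test. Of the 38 genes, 36 had a probe set assigned to them alone in the array's annotation, out of 18193 such genes on the array. Each was read from the probe set that was brightest in mean log2 across the 6 arrays. Optn and Bnip3l were not analysed, since the annotation used here names no probe set for Optn and assigns the 3 probe sets of Bnip3l to other genes as well.

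Macroautophagy encloses cytoplasmic cargo in a double membrane, the autophagosome, which then fuses with lysosomes. The ULK1 kinase complex starts the process and the class III PI3-kinase complex marks the membrane with the lipid PI3P. A pair of ubiquitin-like conjugation reactions then attaches ATG8 proteins of the LC3 and GABARAP families to the membrane, where receptors such as p62 (Sqstm1) and Nbr1 bind both an ATG8 protein and ubiquitinated cargo. These receptors are degraded together with their cargo, and the messages of many of these genes are under control of the factors TFEB, TFE3 and MITF. The arrays measured messages and not autophagic flux.

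All samples were Wnt1-YL cells, a mouse mammary tumor line from an FVB/n animal with the MMTV-Wnt1 transgene, in which the MMTV promoter drives Wnt1 in mammary epithelium. The shSca-1 cells carried a lentiviral pLKO hairpin against Sca-1, a cell surface protein encoded by Ly6a. The shLuc control cells carried the same vector with a hairpin against luciferase, and both were selected with puromycin and grown in serum, insulin and EGF. RNA from 3 biological replicates of each was hybridized to 1 array each, and the comparison asks which messages differ when Sca-1 is reduced.

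Ly6a itself had intensities of 285, 314 and 306 on the shSca-1 arrays, against 7646, 7362 and 2843 on shLuc replicates 1, 2 and 3. The shLuc replicate 3 array stood apart. The summed intensity of 8 luminal epithelial markers was 323 to 338 on the shSca-1 arrays and 286 to 321 on shLuc replicates 1 and 2, but 20261 on shLuc replicate 3, where all 8 were at their highest. The sum of 6 basal markers was 29130 to 31985 on the shSca-1 arrays, 33315 to 33328 on shLuc replicates 1 and 2, and 18107 on shLuc replicate 3. On 6 arrays Krt15, at most 58.8 on any array, and Krt17 were at 14.6% and 59.5% of shLuc. Krt5 and Krt14 were at 158% and 119%, all without overlap, while Trp63 and Acta2 overlapped, at 93.5% and 77.7%. Without shLuc replicate 3 the shares were 10.3% for Krt15, 57.4% for Krt17, 108% for Krt5, 109% for Krt14, 64.1% for Trp63 and 63.3% for Acta2. The sum of 5 leukocyte markers was 328 to 488 on the shSca-1 arrays, 566 to 583 on shLuc replicates 1 and 2, and 301 on shLuc replicate 3. Among them was Cd68, a lysosomal protein abundant in macrophages, which read 53.9, 77.6 and 212 on the shSca-1 arrays and 311, 298 and 32.9 on the shLuc arrays (log2 fold change -0.59, and -1.66 without shLuc replicate 3). The remaining leukocyte markers went both ways on 6 arrays, at 1.04 for Ptprc, 0.20 for Adgre1, -0.20 for Csf1r and -0.75 for Cd3e. Ptprc and Cd3e read at most 20.5 on any array. Summed fibroblast markers were 210.3 to 369 on the shSca-1 arrays and 117 to 260 on the shLuc arrays, endothelial markers 120.3 to 129.7 on the shSca-1 arrays and 105 to 132 on the shLuc arrays, and adipocyte markers 14.4 to 25.9 on the shSca-1 arrays and 9.41 to 20.2 on the shLuc arrays. The 3′ to 5′ ratio of the Gapdh control was 0.877 to 0.909 on shSca-1 arrays and 0.880 to 0.923 on shLuc arrays. That of the actin control was 1.10 to 1.15 on shSca-1 arrays and 1.17 to 1.23 on shLuc arrays, without overlap, so that this sign of RNA quality moved with the groups. The part of RNA quality, of Cd68-expressing cells or of luminal RNA in any result below was not tested. In RNA from whole cultures, fewer cells of a type and less RNA per cell cannot be told apart.

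Autophagy messages that differed between the groups were mostly lower in shSca-1 cells, and the differences were largest in the cargo receptors Sqstm1 and Nbr1. In the limma fit over 6 arrays no member reached an adjusted p under 0.05, nor did any of the 45037 probe sets tested (0% called). By the thresholds the study used, an unadjusted p under 0.01 with a fold change over 1.5, 4 of 36 members (11.1%) were lower, namely Sqstm1, Nbr1, Gabarapl1 and Flcn. The same limma rule called 1.52% of all genes lower, and 2.32% of the 10124 genes with a mean intensity of 64 or more. No member was higher by this rule, against 0.528% of all genes. At an unadjusted p under 0.05 alone, 10 members (27.8%) were lower and 1 (2.78%) was higher, beside 7.05% and 3.57% of all genes.

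Without shLuc replicate 3, limma called 7 of 36 members (19.4%) lower at an adjusted p under 0.05, against 2.73% of all genes, and no member higher, against 1.17%. Of the 10124 genes with a mean intensity of 64 or more, 4.78% were called lower by this rule. The 7 were Sqstm1, Nbr1, Gabarapl1, Gabarap, Map1lc3b, Flcn and Atg14. This count rests on the fit chosen: it was 0 with no trend in the variance or with intensities under 16 set to 16, and also 0 when shLuc replicate 1 or shLuc replicate 2 was left out as well. It was 12 when shSca-1 replicate 3 was left out as well.

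The shift over the members was small beside these single genes. The log2 fold change, shSca-1 minus shLuc, had a median of -0.12 over the 36 members and -0.04 over all genes, and 25 members (69.4%) were below 0, as were 54.6% of all genes. Without shLuc replicate 3 the medians were -0.18 and -0.04, with 31 members (86.1%) and 54.6% of all genes below 0. On 6 arrays the groups did not overlap in 13 members. In 10 of them (27.8%) all shSca-1 arrays were lower, against 11.5% of all genes, and in 3 (8.33%) all were higher, against 7.18% of all genes.

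**Figure D1:**
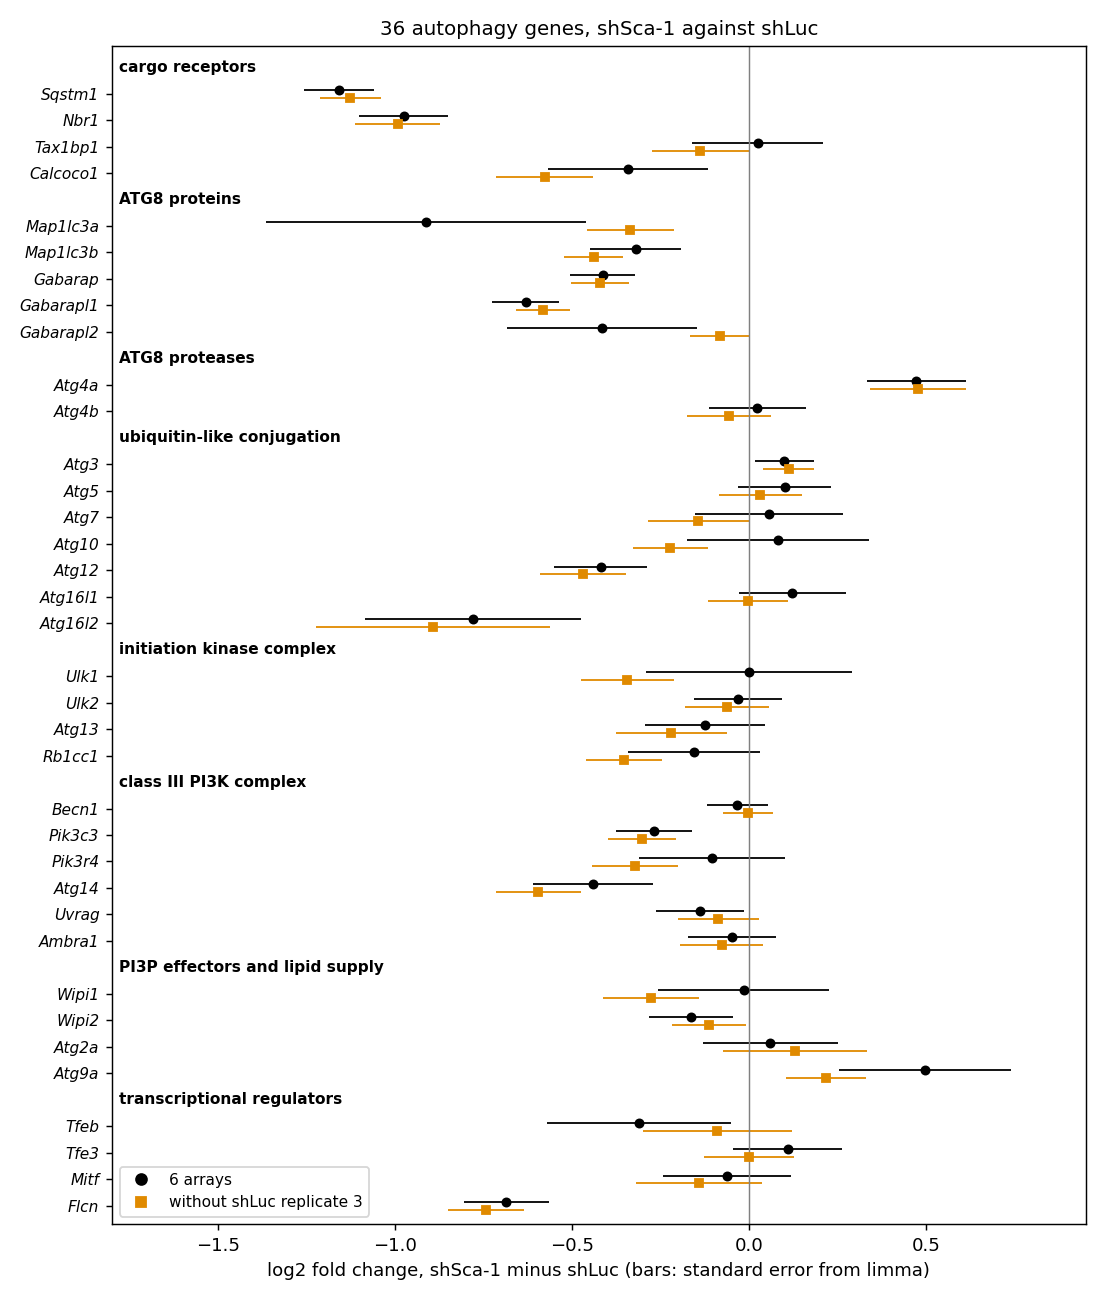
Log2 fold change, shSca-1 minus shLuc, for the 36 measured members, grouped by role, on 6 arrays (circles) and without shLuc replicate 3 (squares), with bars for the standard error from limma. On 6 arrays Sqstm1 and Nbr1 lie farthest below 0, at -1.16 and -0.98, and Atg9a and Atg4a farthest above it, at 0.50 and 0.47.

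Sqstm1 encodes p62, the receptor that carries ubiquitinated cargo to autophagosomes and also holds KEAP1. Its intensity was 1013, 1148 and 1181 on the shSca-1 arrays, against 2355, 2502 and 2597 on the shLuc arrays. The groups did not overlap, and the mean of 1114 ± 89.0 in shSca-1 cells stood against 2484 ± 122 in shLuc cells (SD, n = 3 arrays each). The log2 fold change was -1.16 (standard error, SE, 0.098, limma adjusted p = 0.051), which places the shSca-1 level at 44.8% of shLuc. Among 18193 genes it had rank 3 by p. The value without shLuc replicate 3 was -1.13 (limma adjusted p = 0.0024).

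Nbr1 is a receptor that resembles p62 and works beside it. The shSca-1 arrays read 533, 609 and 703, and the shLuc arrays 1273, 1163 and 1175. Every shSca-1 array was well below every shLuc array, at 50.8% of shLuc on average, with a log2 fold change of -0.98 (SE 0.13, limma adjusted p = 0.090). It was -0.99 (limma adjusted p = 0.010) without shLuc replicate 3. A second probe set of Nbr1 gave -0.85.

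The other receptors measured had smaller differences. Tax1bp1, a receptor for ubiquitinated cargo, had intensities of 1639, 1714 and 2295 in shSca-1 cells and 2050.0, 2047 and 1462 in shLuc cells. The groups overlapped, the log2 fold change was 0.02 (95% interval -0.41 to 0.46), and its 3 probe sets with a mean of 64 or more ranged from -0.31 to 0.02. It turned to -0.14 (-0.46 to 0.18) when shLuc replicate 3 was left out. Calcoco1, a relative of the receptor NDP52 that acts in autophagy of the endoplasmic reticulum and Golgi, read 137, 153 and 125 in shSca-1 cells and 199, 213 and 126 in shLuc cells. Only shLuc replicate 3 lay within the shSca-1 range. The log2 fold change of Calcoco1 was -0.34 on 6 arrays and -0.58 without that array (limma adjusted p = 0.075).

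The ATG8 proteins are the membrane-bound partners of these receptors, and 3 of the 5 genes were called lower without shLuc replicate 3. Gabarapl1, a GABARAP family member often raised by starvation and FoxO factors, had intensities of 832, 821 and 778 in shSca-1 cells, against 1175, 1252 and 1341 in shLuc cells. No arrays overlapped. Its log2 fold change was -0.63 (SE 0.095, limma adjusted p = 0.11) and -0.58 without shLuc replicate 3 (limma adjusted p = 0.012). Its second probe set read 431, 477 and 439 in shSca-1 cells and 712, 669 and 733 in shLuc cells, again without overlap, with a log2 fold change of -0.65.

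Gabarap, the founding member of that family, had intensities of 2201, 2552 and 2518 in shSca-1 cells and 3159, 3321 and 3187 in shLuc cells. All shSca-1 arrays were lower, by a log2 fold change of -0.41 (limma adjusted p = 0.25) and -0.42 without shLuc replicate 3 (limma adjusted p = 0.043). Map1lc3b encodes LC3B, the usual marker of autophagosomes. It read 2692, 2750 and 3152 in shSca-1 cells and 3957, 3797 and 3022 in shLuc cells. Here shLuc replicate 3 fell inside the shSca-1 range, and the log2 fold change was -0.32 with it (adjusted p = 0.52) and -0.44 without it (adjusted p = 0.037, both from limma). The 3 Map1lc3b probe sets with a mean of 64 or more were all below 0, from -0.46 to -0.32.

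In the probe sets used, the size of the fold change of Map1lc3a and Gabarapl2 moved with shLuc replicate 3. Map1lc3a, which encodes LC3A, had intensities of 504, 527 and 654 in shSca-1 cells and 683, 726 and 2341 in shLuc cells, without overlap. Its value on shLuc replicate 3 was 3.32 times the mean of the other shLuc arrays, and its log2 fold change was -0.91 with that array and -0.34 without it (adjusted p = 0.60 and 0.22 from limma). A second Map1lc3a probe set read 154, 156 and 151 in shSca-1 cells and 216, 219.7 and 549 in shLuc cells, also without overlap, at -0.95 with that array and -0.50 without it (limma adjusted p = 0.064). Gabarapl2, also known as GATE-16, read 708, 768 and 793 in shSca-1 cells and 813, 787 and 1600 in shLuc cells. Without shLuc replicate 3 the groups overlapped and the log2 fold change of Gabarapl2 was -0.08 (95% interval -0.28 to 0.11), against -0.42 with it. A second, dimmer Gabarapl2 probe set read 68.1, 73.45 and 88.9 in shSca-1 cells and 81.2, 68.7 and 81.6 in shLuc cells. Its groups overlapped, and its log2 fold change was -0.01 with shLuc replicate 3 and 0.03 without it. On shLuc replicate 3 this second probe set was at 1.09 times the mean of the other shLuc arrays.

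**Figure D2:**
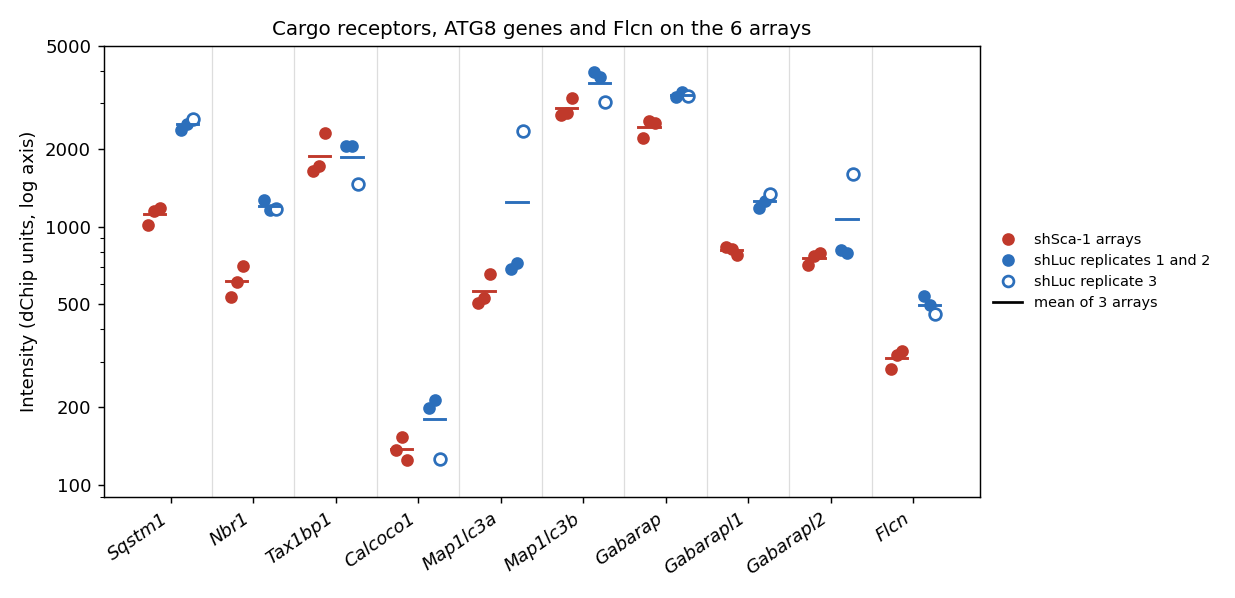
Intensity on a log axis of the cargo receptors, ATG8 genes and Flcn on each array, shSca-1 left of shLuc, with shLuc replicate 3 as an open circle and the mean of 3 arrays as a line. The shSca-1 arrays lie apart from all shLuc arrays for Sqstm1, Nbr1, Gabarapl1, Gabarap, Map1lc3a and Flcn, whereas Tax1bp1, Calcoco1, Map1lc3b and Gabarapl2 overlap.

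Among the regulators, Flcn was lower and the transcription factors showed no call. Flcn encodes folliculin, which with its partners FNIP1 and FNIP2 acts on the RagC and RagD GTPases and keeps TFEB and TFE3 in the cytoplasm in fed cells. Its intensity was 282, 318 and 331 in shSca-1 cells, against 541, 496 and 460 in shLuc cells. The groups did not overlap, and the log2 fold change was -0.69 (SE 0.12, limma adjusted p = 0.17). Without shLuc replicate 3 it was -0.74 (limma adjusted p = 0.016), and a second Flcn probe set gave -0.43 on 6 arrays. That second probe set read 123, 145 and 178 in shSca-1 cells and 222, 206 and 171 in shLuc cells, so its groups overlapped. It was not called on 6 arrays (limma adjusted p = 0.55) or without shLuc replicate 3 (-0.54, limma adjusted p = 0.16). Tfeb read 126, 103 and 131 in shSca-1 cells and 103, 156 and 201 in shLuc cells, so that the groups overlapped. Log2 fold changes were -0.31 for Tfeb (95% interval -0.92 to 0.30), 0.11 for Tfe3 (-0.26 to 0.47) and -0.06 for Mitf (-0.49 to 0.37). They were, without shLuc replicate 3, -0.09 for Tfeb, 0.00 for Tfe3 and -0.14 for Mitf. These are message levels, and the factors are regulated largely by their place in the cell.

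In the conjugation reactions, Atg12 was the member with the lowest p. It encodes a ubiquitin-like protein that is joined to ATG5, and it read 319, 380 and 401 in shSca-1 cells and 533, 480 and 456 in shLuc cells. The groups did not overlap, and the log2 fold change was -0.42 (unadjusted p = 0.015, limma adjusted p = 0.41), or -0.47 (adjusted p = 0.098) without shLuc replicate 3. Its partner Atg5 was at 0.10 (95% interval -0.21 to 0.41), the E1-like Atg7 at 0.06 (-0.44 to 0.55), and the E2-like Atg10 and Atg3 at 0.08 (-0.52 to 0.69) and 0.10 (-0.10 to 0.30) on the log2 scale. When shLuc replicate 3 was left out, Atg7 turned to -0.14 (-0.48 to 0.19) and Atg10 to -0.22 (-0.47 to 0.03), while Atg5 was at 0.03 (-0.24 to 0.30). Atg3 read 2032, 2203 and 2021 in shSca-1 cells and 1977, 1881 and 1978 in shLuc cells, so that shSca-1 was at 107% of shLuc without overlap. Atg16l1, the scaffold that directs lipidation to the membrane, was at 0.12 (-0.24 to 0.48), and at 0.00 without that array. Its relative Atg16l2 had a log2 fold change of -0.78, but its intensities were 30.3, 22.8 and 42.8 in shSca-1 cells and 66.2, 49.8 and 45.5 in shLuc cells, near the array medians of 37.3 to 40.7, and with values under 64 set to 64 the difference was -0.02.

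Atg4a was the one member with an unadjusted p under 0.05 that was higher in shSca-1 cells. It is a protease that trims ATG8 proteins, preferring the GABARAP family, and releases them from membranes. Its intensity was 344, 352 and 318 in shSca-1 cells, against 278, 212 and 245 in shLuc cells. The groups did not overlap, and the log2 fold change was 0.47 (SE 0.14, unadjusted p = 0.011, limma adjusted p = 0.37). A second Atg4a probe set read 133, 114 and 130 in shSca-1 cells and 98.4, 85.9 and 118 in shLuc cells. Its groups overlapped, and it gave 0.33 (limma adjusted p = 0.64). Atg4b, the main ATG4 protease for LC3, was at 0.02 (95% interval -0.30 to 0.35) with overlapping groups, and at -0.06 without shLuc replicate 3.

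The initiation kinase complex showed no call in either limma fit. Log2 fold changes were 0.00 for the kinase Ulk1 (95% interval -0.69 to 0.69), -0.03 for Ulk2 (-0.33 to 0.26), -0.13 for the adaptor Atg13 (-0.53 to 0.28) and -0.16 for Rb1cc1, the scaffold FIP200 (-0.60 to 0.28). Ulk1 read 511, 601 and 705 in shSca-1 cells and 775, 749 and 374 in shLuc cells, so that shLuc replicates 1 and 2 were above all shSca-1 arrays and shLuc replicate 3 below them. Without that array Ulk1 was at -0.34 (adjusted p = 0.25) and Rb1cc1 at -0.35 (adjusted p = 0.14, both from limma).

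In the class III PI3-kinase complex, Atg14 was called lower without shLuc replicate 3 and the other subunits were not called. Atg14, which directs the complex to the site of autophagosome formation, had intensities of 135, 144 and 150 in shSca-1 cells and 213, 218 and 157 in shLuc cells. The groups did not overlap, and the log2 fold change was -0.44 on 6 arrays (adjusted p = 0.50) and -0.60 without shLuc replicate 3 (adjusted p = 0.047, both from limma). Pik3c3, the lipid kinase VPS34, read 266, 264 and 273 in shSca-1 cells and 322, 338 and 308 in shLuc cells. That is a small difference without overlap, with a log2 fold change of -0.27 (unadjusted p = 0.041, limma adjusted p = 0.52). Becn1, the scaffold of the complex, read 1326, 1331 and 1351 in shSca-1 cells and 1391, 1288 and 1428 in shLuc cells, for a log2 fold change of -0.03 (95% interval -0.24 to 0.17). Pik3r4, Uvrag and Ambra1, other subunits and regulators of the complex, lay at -0.11, -0.14 and -0.05 with intervals that span 0. On the other 5 arrays, without shLuc replicate 3, Uvrag was at -0.09 and Ambra1 at -0.08, but Pik3r4 was at -0.32 (95% interval -0.60 to -0.04, unadjusted p = 0.030, adjusted p = 0.24 from limma), and its groups did not overlap.

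The PI3P effectors and lipid supply genes had no call. Atg9a, the scramblase on vesicles that seed the autophagosome, read 266, 289 and 298 in shSca-1 cells and 229, 261 and 137 in shLuc cells. All shSca-1 arrays were higher, by a log2 fold change of 0.50 (95% interval -0.08 to 1.07) on 6 arrays and 0.22 (-0.05 to 0.48) without shLuc replicate 3. Wipi1, a PI3P-binding protein, had 6 probe sets whose log2 fold changes ranged from -0.54 to 0.18, and the one used here gave -0.02, and -0.28 (95% interval -0.59 to 0.04) without shLuc replicate 3. Wipi2, which recruits ATG16L1, and the lipid transfer protein Atg2a were at -0.16 (95% interval -0.44 to 0.11) and 0.06 (-0.39 to 0.51).

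shLuc replicate 3 differed by more than 1.5 times from both other shLuc arrays in 7 of the 36 members. It was higher in Map1lc3a and Gabarapl2 and lower in Ulk1, Wipi1, Atg9a, Atg10 and Calcoco1. That is 5.56% of members over and 13.9% under, beside 13.3% and 14.01% of all genes. Atg10 read 321, 361 and 359 in shSca-1 cells and 431, 378 and 214 in shLuc cells, and Wipi1 read 1127, 1183 and 1560 in shSca-1 cells and 1497, 1601 and 897 in shLuc cells. Without that array the groups of Atg10 did not overlap, while those of Wipi1 still did.

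**Figure D3:**
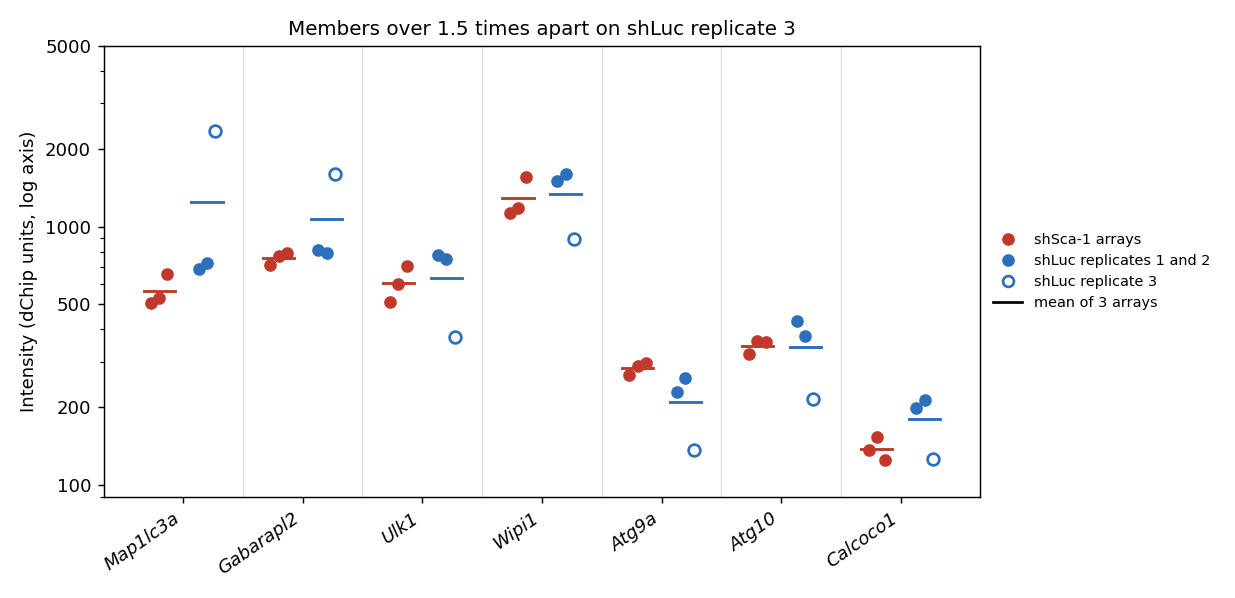
Intensity on a log axis of the 7 members in which shLuc replicate 3 (open circle) lay over 1.5 times from both other shLuc arrays, shSca-1 left of shLuc, with the mean of 3 arrays as a line. Map1lc3a and Gabarapl2 were higher on that array, and Ulk1, Wipi1, Atg9a, Atg10 and Calcoco1 were lower.

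Most members were read by more than 1 probe set. Of 85 probe sets assigned to a single member, 6 were lower by the study's thresholds and none was higher, beside 1.33% and 0.5% of all probe sets. Without shLuc replicate 3, limma called 10 lower and none higher at an adjusted p under 0.05, beside 1.92% and 0.842% of all probe sets. The probe sets used for Gabarapl1, Flcn, Map1lc3a, Becn1, Pik3r4 and Wipi1 carry the Affymetrix suffix for probes that can also match other transcripts, so those values may include related messages.

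The promoters of the members, called or not, were read for the E-box that TFEB, TFE3 and MITF bind. The reason was that these factors are the known shared regulators of the list. RefSeq promoters of GRCm38.p6 matched 30 of the 36 members in 38 windows, since some have several. Each window has 300 bases, of which 250 lie before the start site, and shares are given beside those of the 26742 RefSeq genes that have a window. The letters TCACGTG, searched on both strands, were in the windows of 3 members (10%), Atg14, Atg3 and Atg7, and in 4.32% of these RefSeq genes. Of these 3, Atg14 was called lower without shLuc replicate 3, Atg3 was at 107% of shLuc, and Atg7 overlapped between groups in the probe set used. The shorter E-box CACGTG, which TCACGTG contains, was in 4 members (13.3%), Atg5 besides those 3, and in 8.11% of the RefSeq genes. The antioxidant response letters TGACNNNGC were in 5 members (16.7%), Atg13, Map1lc3b, Mitf, Tax1bp1 and Ulk2, and in 14% of the RefSeq genes, and the FoxO letters TGTTTAC were in no member and in 4.06% of the RefSeq genes. A match is a description of letters and not of binding.

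The 100 bases next to the start site of the 4 members lower by the study's thresholds, Sqstm1 (chr11:50210821-50210920, minus strand), Nbr1 (chr11:101552554-101552653, plus strand), Gabarapl1 (chr6:129533092-129533191, plus strand) and Flcn (chr11:59810040-59810139, minus strand), show windows without these letters, so they have no capitals.
Sqstm1: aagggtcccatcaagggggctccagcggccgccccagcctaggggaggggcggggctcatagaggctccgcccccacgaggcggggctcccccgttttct
Nbr1: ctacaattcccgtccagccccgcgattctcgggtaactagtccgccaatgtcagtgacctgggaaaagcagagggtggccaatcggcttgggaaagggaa
Gabarapl1: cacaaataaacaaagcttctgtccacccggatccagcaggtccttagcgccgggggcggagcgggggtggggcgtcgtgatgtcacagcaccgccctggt
Flcn: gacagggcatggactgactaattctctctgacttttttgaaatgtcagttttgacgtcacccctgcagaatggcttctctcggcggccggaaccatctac
The 3 members with the letters are shown for contrast, with TCACGTG on either strand in capitals, at Atg14 (chr14:47568425-47568524, minus strand), Atg3 (chr16:45158729-45158828, plus strand) and Atg7 (chr6:114670946-114671045, plus strand).
Atg14: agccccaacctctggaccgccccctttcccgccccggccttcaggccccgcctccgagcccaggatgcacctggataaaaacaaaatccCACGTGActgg
Atg3: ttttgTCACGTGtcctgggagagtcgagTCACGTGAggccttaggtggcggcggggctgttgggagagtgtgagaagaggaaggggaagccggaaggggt
Atg7: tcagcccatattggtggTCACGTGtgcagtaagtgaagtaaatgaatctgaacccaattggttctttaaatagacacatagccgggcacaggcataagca
The Atg3 window holds 3 matches, of which 2 overlap on opposite strands.

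Beside the members, 77 other autophagy and nutrient-signaling genes were listed by role, also with earlier results of these data known, and 75 of them were measured. Their median log2 fold change was -0.14 on 6 arrays, and 59 were below 0. By the study's thresholds 4 (5.33%) were lower and none was higher, beside 1.52% and 0.528% of all genes. In the fit without shLuc replicate 3, limma called 8 (10.7%) lower and 2 (2.67%) higher at an adjusted p under 0.05, beside 2.73% and 1.17% of all genes. Of the 10124 genes with a mean intensity of 64 or more, 4.78% were lower by this rule. By the study's thresholds on 6 arrays, 2.32% of them were lower. No gene of the 4 lists reached an adjusted p under 0.05 on 6 arrays, while the groups did not overlap in 23 that were lower (30.7%, beside 11.5% of all genes) and in 4 that were higher (5.33%, beside 7.18% of all genes).

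The 4 genes lower by the study's thresholds came from 3 of the lists. Retreg1, a receptor for autophagy of the endoplasmic reticulum, read 542, 526 and 456 in shSca-1 cells and 807, 818 and 1279.7 in shLuc cells, a log2 fold change of -0.90 without overlap. Stbd1, which binds glycogen, read 24.6, 34.9 and 53.4 in shSca-1 cells and 130.3, 126 and 252 in shLuc cells, also without overlap, with the shSca-1 values near the array medians. Deptor, an inhibitor bound to mTOR, read 96.4, 88.9 and 104 in shSca-1 cells and 221, 199 and 533 in shLuc cells, and its log2 fold change was -1.57 with shLuc replicate 3 and -1.12 without it. Zfyve1, the omegasome marker DFCP1, read 88.9, 99.6 and 112 in shSca-1 cells and 169, 137 and 151 in shLuc cells, a log2 fold change of -0.60.

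Other genes were called only in the fit without shLuc replicate 3. Fnip2, a binding partner of folliculin, was at -0.54 (adjusted p = 0.025) and Rragc, the RagC GTPase, at -0.53 (adjusted p = 0.043, both from limma). The remaining folliculin partners of the list, named here after their values were seen, were not called, with Fnip1 at -0.54 (adjusted p = 0.13) and Rragd at -0.52 (adjusted p = 0.76, both from limma). Rragd read 9.52, 9.35 and 5.8 in shSca-1 cells and 6.66, 19.8 and 32.3 in shLuc cells. These values overlapped and were below the array medians. On shLuc replicate 3, Fnip2 read 368, below its shSca-1 range of 390.2 to 432, and Rragc read 1111, within its shSca-1 range of 938 to 1188. Trp53inp1, a p53 target that binds ATG8 proteins, read 610, 673 and 702 in shSca-1 cells and 1360, 1328 and 295 in shLuc cells, so that its log2 fold change was -1.02 without shLuc replicate 3 and -0.30 with it. The PI3P-binding protein Wdr45 and the reticulum receptor Ccpg1 were lower without that array, at -0.68 and -0.51, and at -0.50 and -0.38 with it. On shLuc replicate 3 Wdr45 read 412, within its shSca-1 range of 340 to 415. Tmem41b, a scramblase of the endoplasmic reticulum, and Ykt6, a SNARE of autophagosome fusion, were higher without shLuc replicate 3, at 0.53 and 0.44. With that array they were at 0.29 and 0.42. Tmem41b read 929, 941 and 880 in shSca-1 cells and 655, 613 and 1046 in shLuc cells, so that shLuc replicate 3 was above all shSca-1 arrays. Ykt6 read 1338, 1463 and 1467 in shSca-1 cells and 1052, 1039 and 1105 in shLuc cells, with no overlap on 6 arrays.

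**Figure D4:**
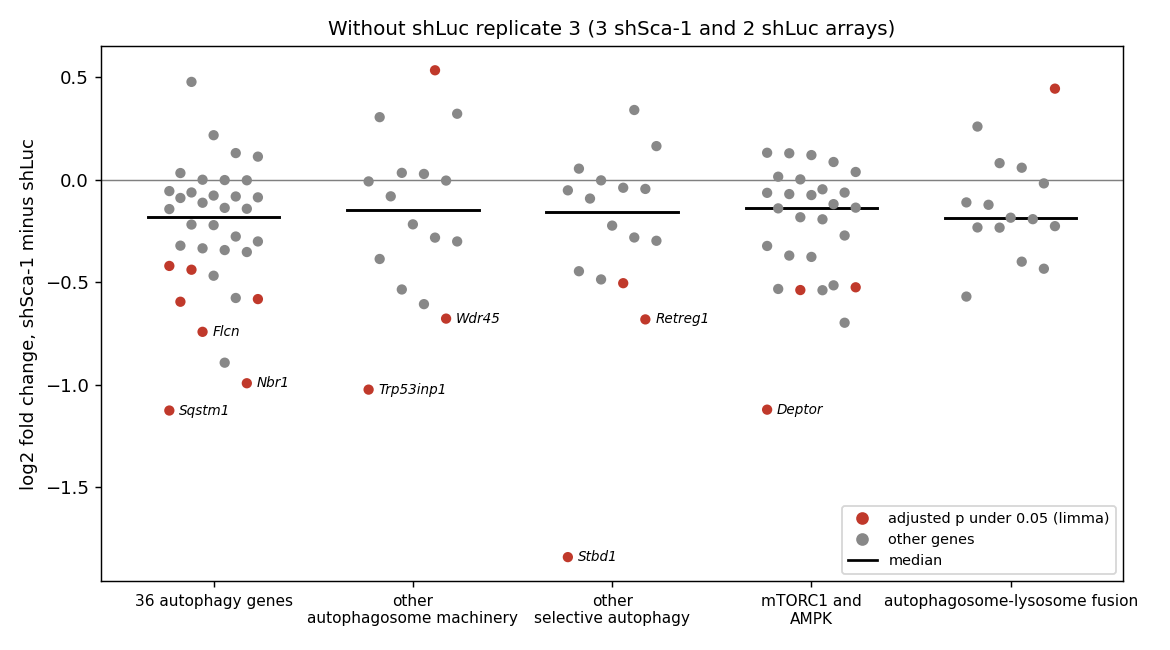
Log2 fold change, shSca-1 minus shLuc, without shLuc replicate 3, for the 36 members and the 4 lists of other pathway genes, 1 point per gene, with red points for an adjusted p under 0.05 from limma and a line for the median of each list. The medians lie between -0.19 and -0.14, and Stbd1, at -1.84, lies farthest below 0.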

How the data were processed

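RNA from 3 shSca-1 and 3 shLuc cultures was measured on Affymetrix mouse arrays. The deposited values are linear intensities, which the authors computed with dChip (PM-MM model, invariant set normalization; version not given in the sources used here). The number of arrays limits the precision.

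Control probe sets (64) were left out and a floor of 1 was set before taking log2. The groups were compared over 45037 probe sets with limma 3.58.1 in R 4.3.3 (lmFit, eBayes with trend, no replicate block), with Benjamini-Hochberg adjustment over all of them. The annotation gave 34945 probe sets 1 symbol, 932 several and 9160 none. Ly6a has no symbol there and was matched through the study's supplement. Tables were made with pandas 2.3.3 and numpy 2.4.6 in Python 3.11.15, and plots with matplotlib 3.10.9. The fit was tested on simulated data.

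The members and lists were chosen with earlier results of these data known. Any member may be named. Other pathway genes are named only where they pass an unadjusted p under 0.01 with a fold over 1.5 on 6 arrays, or an adjusted p under 0.05 without shLuc replicate 3, at most 6 per list by smallest p. Fnip1 and Rragd are exceptions, named as folliculin partners although they pass neither rule. The alternatives were quantile normalization, median centring, floors of 16 and 64, a filter on dim probe sets at the 40 percentile, no trend, robust variance, the methods' t-test, the mean of a gene's probe sets, leaving out single arrays and a replicate block.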

Additional observations from a re-analysis of the deposited data

How the results depend on the processing

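The count of members lower by the study's thresholds, 4 as reported, was 3 to 4 under every alternative, leaving out any array included. The count was not always of the same members. Without shLuc replicate 3 the 4 were Sqstm1, Nbr1, Flcn and Atg14, and Gabarapl1 was not among them. No called member reversed in any of 112 recomputed values. On 6 arrays the count at an adjusted p under 0.05 in limma, 0 as reported, was 1 after quantile normalization, 1 after median centring, 1 with dim probe sets filtered out and 2 with robust variance. Leaving out 1 array gave 0 to 7, and the 7 came without shLuc replicate 3. The 7 members called without shLuc replicate 3 became 0 with a floor of 16, 0 with a floor of 64, 0 with no trend, 0 by the methods' t-test, 3 with the mean of probe sets and 12 with a replicate block. Leaving out a further array gave 0 to 12: 4 where it was shSca-1 replicate 1, 1 where it was shSca-1 replicate 2, 12 where it was shSca-1 replicate 3 and 0 where it was either other shLuc array. The 4 other pathway genes lower by the study's thresholds became 1 with a floor of 64 and 2 by the methods' t-test. Leaving out 1 array gave 2 to 7, with 2 without shSca-1 replicate 1 or 2 and 7 without shLuc replicate 3. The causes of these shifts were not tested.

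Over all genes, 74.2% of calls by the study's thresholds were lower, against 60.8% after quantile normalization and 62.8% after median centring. The median log2 fold change of all genes was -0.04 as reported and 0.02 and 0.03 after these scalings. Arrays with the same replicate number had deviations from their group means that correlated at -0.04, -0.02 and -0.03, so the numbers were not taken as pairs. With a replicate block the members lower by the study's thresholds numbered 4.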

Other observations

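Within each group the members were not spread evenly over the arrays. Of the 36 members, 26 (72.2%) were at their lowest shSca-1 value on shSca-1 replicate 1, as were 47.7% of all genes, and 23 (63.9%) were at their highest on shSca-1 replicate 3, as were 42.1% of all genes. On shLuc replicate 3, 23 members (63.9%) had the lowest of the shLuc values, as did 39.5% of all genes. These counts are descriptions of the arrays and were not tested.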
